A study of Mus musculus with 12 samples.

Results

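Macrophages are phagocytes that live in every tissue and that arise from embryonic precursors or from blood monocytes. The transcription factors that set and keep this fate were examined in macrophages of the mouse pancreas, taken either from the normal organ or from tumors in it. The 9 factors were taken by gene name: PU.1 (gene Spi1), C/EBP alpha (Cebpa), C/EBP beta (Cebpb), IRF4 (Irf4), IRF8 (Irf8), c-Maf (Maf), GATA6 (Gata6), ID3 (Id3) and ZEB2 (Zeb2). All probes with these names were used, 12 in all, and all 9 genes were among the 16402 genes tested. The choice was by name, made with earlier results of these data known.

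The array study compared macrophages of normal pancreas (6 arrays) with macrophages of pancreas tumor (6 arrays). Mice of both groups were female, C57/B6 and 4 to 5 months old, with a genotype given as not provided. The treatment protocol, which is the same for both groups, speaks of implanted tumors and of sorting by flow cytometry straight into lysis buffer. The series design names wild-type, KPC (mice that develop pancreatic carcinoma from engineered mutations) and FLT3-CRE/LSL-YFP mice (a reporter of cells with a FLT3-expressing ancestor), and the labels tie none of them to a sample, so neither the tumor model nor its host can be given per array. In each group 1 sample name stands on 2 arrays, normal replicates 2 and 3 and tumor replicates 4 and 6. Those were averaged, which left 5 samples per group. Whether names stand for separate animals is not stated, and p-values rest on the spread among these samples alone, part of which may be technical.

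PU.1, an ETS-family factor, opens the enhancers of myeloid cells, and C/EBP alpha and C/EBP beta act with it at many of them. IRF8 directs progenitors toward monocytes and dendritic cells, while IRF4 acts in dendritic cells, plasma cells and macrophages exposed to interleukin-4. MAF-family factors restrain self-renewal of differentiated macrophages. GATA6 is the tissue-specific factor of large peritoneal macrophages, ID3 is needed by Kupffer cells of the liver, and ZEB2 keeps tissue macrophages in their identity.

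What an array reports of such a gene depends on where its probe lies, so the probes that carry the results below are shown first. The mm9 positions come with the array, whose annotation does not place a probe in an exon, intron or untranslated region. The Spi1 probe is annotated on chromosome 2 from 90939665 to 90953452 (plus strand), a span of 13788 bases for 60 bases of probe, and the Id3 probe on chromosome 4 from 135700075 to 135700249 (plus strand), a span of 175 bases. A span longer than the probe means that the probe joins separate pieces of genome, as a spliced transcript does. Both are printed whole, since they are the lineage probes built across a gap.
Spi1: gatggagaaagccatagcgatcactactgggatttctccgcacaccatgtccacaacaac
Id3: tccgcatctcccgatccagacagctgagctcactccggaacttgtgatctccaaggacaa

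Cebpb and Maf had the smallest p-values of the 9 factors, and the last 30 bases of their tested probes are shown because each holds a polyadenylation-type hexamer, in capitals. The Cebpb probe lies on chromosome 2 from 167515828 to 167515887 (plus strand). The tested Maf probe lies on chromosome 8 from 118227736 to 118227795 (minus strand). A second Maf probe lies at 118207273 to 118207332 on the same strand, 20463 bases further along the gene's direction, and its first 30 bases are shown to mark it as a different sequence.
Cebpb: ccgtttcgagcATTAAAgtgaagacatttt
Maf, tested probe: actgtattgaaaaccaaagtATTAAAaggg
Maf, second probe: gaacaagccttggtttacattagaataacg
The hexamer ATTAAA was found in 4.56% of the 39429 probes, AATAAA in 12.6% and either in 16.7%, searching the probe strand. A match describes the letters of the probe and does not show where transcripts end. Further probes lie on chromosome 7 from 35906517 to 35906576 (Cebpa), chromosome 13 from 30858532 to 30858591 (Irf4) and chromosome 8 from 123280324 to 123280383 (Irf8), all on the plus strand. The 3 Zeb2 probes lie on chromosome 2, minus strand, at 44840038 to 44840097, 44842774 to 44842833 and 44965914 to 44965973. Those 3 are given by their first 30 bases, because they differed in signal.
Zeb2, probe 1: tacgtgggggaaaatatatgtgaaagcaat
Zeb2, probe 2: ctgtattttcgactgaaaattccactttct
Zeb2, probe 3, tested: cttactgtaccgccgtgtgcattccctcat

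Levels are log2 processed signals relative to the 75th percentile of all probes on the array, and differences are tumor minus normal on that scale. The 75th percentile itself ran from 398 to 1547 units of signal, lowest on the 2 arrays of normal replicates 2 and 3, and 39.3% to 58.7% of probes were well above background. All 13 macrophage markers tested, among them Itgam, C1qb and Adgre1, were well above background on all 12 arrays. Their mean level per sample was 4.40 to 5.02 in normal and 4.48 to 4.97 in tumor, and 0 passed the test (median difference -0.13). Transcripts of acinar markers, genes of the cells that make digestive enzymes, held 0.579% to 3.75% of the summed signal in the normal group and 0.00938% to 0.226% in the tumor group. All 22 tested acinar markers were lower in tumor samples, 19 of them past the threshold (0.512% of all genes were lower past it). Of 10 endothelial markers 9 passed the filter on dim probes and 4 were well above background on all arrays, and of 14 B cell and plasma cell markers 12 passed and 5 were. Cdh5 and Ms4a1, a defining marker of each cell type, were among those that did not pass, while Kdr and Cd79b were well above background on all 12 arrays. In such sorted bulk samples fewer cells of a type and less RNA per cell cannot be told apart.

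None of the 9 factors passed the test between tumor and normal macrophages. An adjusted p under 0.05 in limma was reached by 0 of 9, against 0.854% of all genes tested (140 of 16402, 56 higher and 84 lower in tumor). At an unadjusted p under 0.05 there were 2 of 9, Maf and Cebpb, against 13.0% of all genes. The samples of the groups overlapped for every factor, so 0 of 9 were free of overlap, against 3.43% of all genes. Differences were positive for 6 factors and negative for 3 (Maf, Gata6 and Id3), with a median of 0.29, against 49.6% positive and a median of -0.0044 over all genes. The 8 factors other than Gata6 were well above background on all 12 arrays, and Gata6 on 6 normal and 5 tumor arrays.

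**Figure D1:**
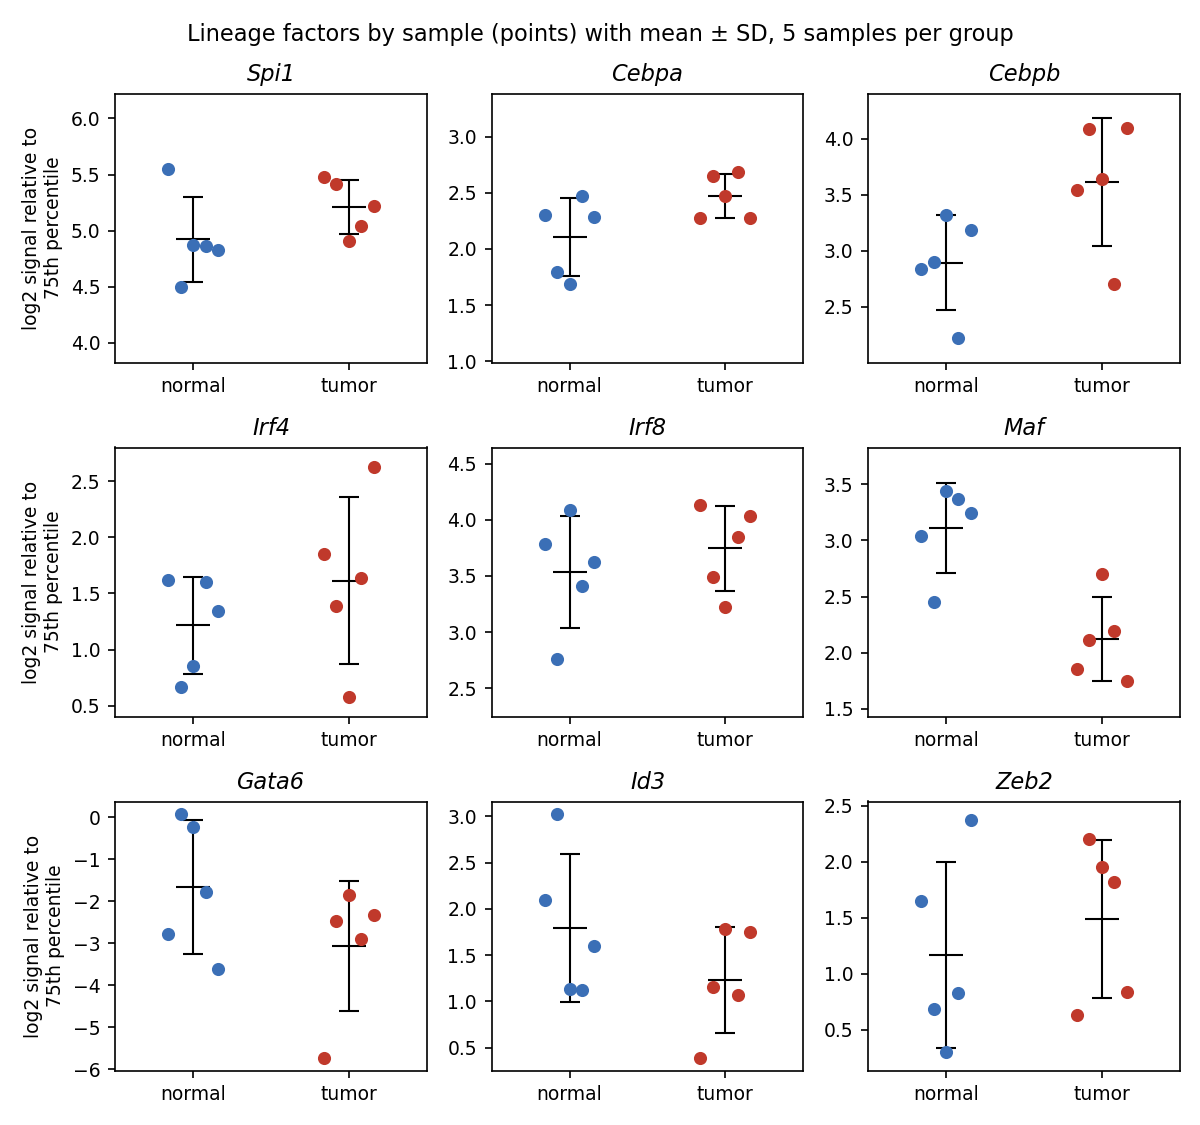
Level of each lineage factor in each sample. Each panel gives 1 gene, with the log2 signal relative to the array's 75th percentile on the vertical axis (scales differ between panels), normal samples in blue and tumor samples in red, and the bars show mean ± SD over 5 samples. The 5 tumor samples of Maf sit at 2.70 or below with 4 of the 5 normal samples above them, the groups of Irf8 and Zeb2 lie across each other, and 1 tumor sample of Gata6 sits at -5.74.

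PU.1 was among the steadier of these transcripts. Values of all genes are given below in the order of normal replicates 1, 2 with 3, 4, 5 and 6 and then tumor replicates 1, 2, 3, 4 with 6, and 5. The level of Spi1 was 5.55, 4.50, 4.87, 4.87 and 4.83 in normal samples and 5.48, 5.41, 4.91, 5.04 and 5.22 in tumor samples. All 5 tumor samples lay above the normal median, yet normal replicate 1 was the highest of the 10. The difference was 0.29 (95% interval -0.24 to 0.82, limma adjusted p = 0.641), whose upper end is a 1.76-fold higher level in tumor. Its spread within groups, 0.32, was lower than that of all but 15.3% of the genes tested. Arrays of Spi1 that share a sample name differed by 0.18 in normal (SD 0.38) and by 0.21 in tumor (SD 0.24).

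C/EBP alpha and C/EBP beta both had positive differences. Cebpa, which PU.1 needs as a partner in granulocyte and monocyte progenitors, stood at 2.30, 1.79, 1.69, 2.47 and 2.29 in normal and at 2.27, 2.65, 2.47, 2.69 and 2.27 in tumor samples. The 5 tumor values kept within a narrow band (SD 0.20), while 2 normal samples lay below all of them. Arrays that share a sample name differed by 0.39 in normal, more than the normal SD of 0.35, and by 0.0097 in tumor. The difference was 0.36 (interval -0.13 to 0.86, limma adjusted p = 0.528). Cebpb, which is induced by inflammatory signals and is needed for alternative activation, stood at 2.84, 2.90, 3.32, 2.22 and 3.18 in normal and at 3.54, 4.08, 3.64, 2.70 and 4.10 in tumor samples. In 4 of 5 tumor samples it was above every normal sample, and the sample of tumor replicates 4 and 6 was the exception. The difference of 0.72 (interval 0.015 to 1.42), or 1.65-fold, had an unadjusted p of 0.0460 and an adjusted p of 0.372 in limma. The two-sided exact permutation test over 252 assignments gave p = 0.0556, where 0.00794 is the smallest it can give.

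Monocytes are a cell in which C/EBP beta is abundant. All 10 tested monocyte markers had positive differences, 3 past the threshold (median 1.45), against 49.6% positive and 0.341% higher past it over all genes. Their list means were 0.16 to 0.80 in normal and 1.57 to 2.83 in tumor samples. The list was chosen with earlier results of these data known, so the count is not independent evidence of its direction. Fn1, fibronectin, differed by 0.89 ± 0.20 (log2, SE; limma adjusted p = 0.0867), and passed after normexp correction (0.0251), with trended and robust variance (0.0163) and with 12 arrays as separate samples (0.0303). The last setting, here and below, counts arrays of the same sample name as independent. Nr4a1, which with Fn1 is 1 of the 2 brightest genes of the list, differed by only 0.096 ± 0.22 (log2, SE), with a limma adjusted p of 0.887. In the order above the monocyte means of the tumor samples were 2.83, 2.66, 2.54, 1.57 and 2.12. The sample of tumor replicates 4 and 6 was lowest in this mean and in Cebpb, while the sample with the highest mean, tumor replicate 1, had the second lowest Cebpb of the tumor samples and replicate 5, with the highest Cebpb, the second lowest mean. With the monocyte mean as a covariate, chosen after the data were seen, the Cebpb difference was -0.76 ± 0.75 (log2, SE; limma adjusted p = 0.788). The monocyte means did not overlap between groups, so that fit cannot separate them from the group. The part of monocyte transcripts in the Cebpb difference was not tested.

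The relatives of these factors gave no call over 12 genes. Of 4 other C/EBP family members 1 was positive and 3 were negative (median -0.27). Cebpe, a factor of late granulocyte and macrophage maturation, went from -1.53 ± 0.59 to 0.33 ± 0.68 (SD, 5 samples each), with no overlap of the groups, and missed the threshold at a limma adjusted p of 0.0563. Of the normal arrays 4 of 6 had it well above background. Its adjusted p was 0.0262 without normal replicate 6, 0.0309 with the stricter filter on dim probes, 0.0294 with trended and robust variance and 0.0158 with 12 arrays as separate samples, while after normexp correction its difference was 0.88 (adjusted p = 0.148). Cebpg, a family member without an activation domain, differed by -0.61 ± 0.27 (log2, SE). Of 8 ETS relatives of PU.1 5 were positive and 3 negative (median 0.11). Spib, the closest relative of PU.1 and a factor of B cells and plasmacytoid dendritic cells, differed by 2.64 ± 0.93. Ets1, a factor of lymphocytes and endothelium, differed by -1.62 ± 0.47 (limma adjusted p = 0.170). It passed with 12 arrays as separate samples (limma adjusted p = 0.0401), where arrays of the same sample name count as independent. Of the normal arrays 3 of 6 had Spib well above background, which leaves the size of its change uncertain.

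Known targets of PU.1 and the C/EBP factors were mostly positive, without a call. Of 15 tested targets, which include Csf1r, Itgam and Cybb, 12 were positive and 3 negative, with a median of 0.18, and 1 had an unadjusted p under 0.05. Fcgr3, an activating receptor for antibody, went from 4.77 ± 0.26 to 5.31 ± 0.25 with no overlap between groups (limma adjusted p = 0.326). Fcgr1, the high-affinity receptor, differed by 0.58 ± 0.30 (log2, SE). Of 11 tested partner proteins of the 9 factors 7 were positive (median 0.17) and 0 passed. Jun, a subunit of AP-1 that binds beside PU.1, differed by -0.75 ± 0.26.

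IRF4 and IRF8 did not separate the groups. Irf4 stood at 1.62, 0.67, 0.85, 1.60 and 1.34 in normal and at 1.85, 1.39, 0.58, 1.63 and 2.63 in tumor samples. Both the highest and the lowest of the 10 values were tumor samples, replicates 5 and 3. The difference was 0.40 (interval -0.42 to 1.22, limma adjusted p = 0.679). Irf8 stood at 3.78, 2.76, 4.09, 3.41 and 3.63 in normal and at 4.13, 3.49, 3.23, 3.85 and 4.03 in tumor samples. Only 1 tumor sample lay above every normal one, and the difference was 0.21 (interval -0.43 to 0.86, limma adjusted p = 0.791).

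Dendritic cells are a cell type in which both factors act. The mean of their markers was 1.05, 0.28, 0.06, 0.55 and 1.20 in normal and 1.79, 0.93, 0.25, 1.54 and 1.99 in tumor samples. Tumor replicate 5 was highest and tumor replicate 3 lowest of its group in this mean and in Irf4. Of 10 tested dendritic cell markers 7 were positive (median 0.29) and 0 passed, and Xcr1 and Clec9a, which define the cross-presenting subset, did not pass the filter on dim probes. With this mean as a covariate the difference was -0.19 ± 0.29 (log2, SE) for Irf4 and -0.054 ± 0.32 for Irf8. The part of dendritic cell transcripts in either value was not tested.

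Irf4 itself did not pass, and 2 genes linked to it did. Of 10 tested genes 9 were positive and 1 negative, 2 were higher past the threshold (0.341% of all genes were), and the median was 1.34. That median was 0.66 after normexp correction, and with a list mean as a covariate it was 0.47 (dendritic cell), 0.44 (monocyte) and 0.30 (acinar). The list shares Ccr7 and Cd209a with the dendritic cell markers and Chil3 with the monocyte markers. Its differences ran from -0.13 to 3.97, and it was chosen with earlier results of these data known. The count is therefore not independent evidence of its direction. Ccl17, a ligand of the T cell receptor CCR4, rose from 1.04 ± 1.22 to 4.48 ± 1.16 (SD, 5 samples each; limma adjusted p = 0.0452). That call was lost without 8 of the 10 samples in turn, with a highest adjusted p of 0.128 without tumor replicate 2. It was also lost within each slide and with each list mean used as a covariate. The covariate fits gave limma adjusted p of 0.0714 (B cell and plasma cell), 0.109 (endothelial), 0.170 (dendritic cell), 0.720 (monocyte) and 0.999 (acinar). Pdcd1lg2, the gene of PD-L2, was at least 4.52-fold higher in tumor samples (limma adjusted p = 0.00599), with none of the normal arrays well above background. Its bound sets the mean tumor level over normal arrays at their lowest detectable signal, and its call was lost after normexp correction (adjusted p = 0.174). The Pdcd1lg2 call was also lost within each slide and with the acinar and monocyte means as covariates, where 0 genes passed. Genes linked to IRF8 were split, with 4 positive and 4 negative (median 0.087) and 0 past the threshold. Naaa, a lysosomal hydrolase of cross-presenting dendritic cells, differed by 1.50 ± 0.51 (log2, SE) without overlap of the groups, and Cst3, cystatin C, by -0.34 ± 0.22. The 7 other IRF genes had a median of 0.0078 and 0 calls, with Irf5, a driver of inflammatory activation, at 0.53 ± 0.24 and Irf2, a repressor of interferon genes, at -0.42 ± 0.21.

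c-Maf was the factor with the smallest p-value, and both of its probes were lower in tumor samples. The tested probe read 3.04, 2.45, 3.44, 3.37 and 3.24 in normal and 1.86, 2.11, 2.70, 2.20 and 1.75 in tumor samples. In 4 of 5 tumor samples it was below every normal sample, and the overlap came from tumor replicate 3 (2.70) and from the sample of normal replicates 2 and 3 (2.45). The difference was -0.99 (interval -1.58 to -0.40), or 1.98-fold lower, with an unadjusted p of 0.00371 and an adjusted p of 0.145 in limma. The two-sided exact permutation test over 252 assignments gave p = 0.0159. Its absolute difference was larger than that of 87.9% of genes, and its spread within groups larger than that of 25.3%.

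The second Maf probe gave a like difference with a wider spread. By array it read 2.68, 1.09, 1.03, 1.45, 1.92 and 2.16 for normal replicates 1 to 6 and 0.19, 0.86, 1.78, 0.95, -0.91 and 0.98 for tumor replicates 1 to 6. The difference was -1.28 ± 0.49 (log2, SE; unadjusted p = 0.0237 in limma over probes, adjusted p = 0.311; two-sided exact permutation p = 0.0397). Tumor replicate 3 again lay above normal samples, here those of replicates 2 with 3 and of replicate 4. Arrays that share a sample name differed by 0.070 (normal) and 0.00090 (tumor) on the tested probe, far less than the samples of a group did.

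**Figure D2:**
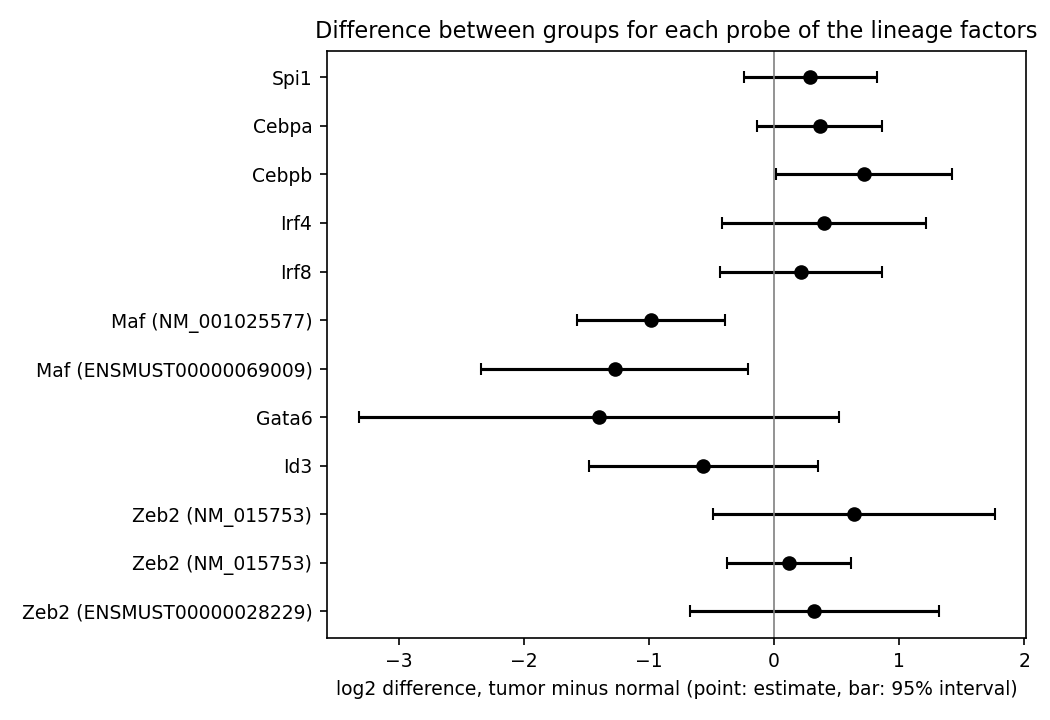
Difference between groups for each of the 12 probes of the lineage factors. The horizontal axis is the log2 difference, tumor minus normal, points are estimates and bars are 95% limma intervals, with the annotated transcript in brackets where a gene has several probes. Both Maf probes (-0.99 and -1.28) have intervals below 0, the Cebpb interval starts at 0.014 in the fit over probes, the Gata6 interval is the widest, and the 3 Zeb2 probes (0.64, 0.12 and 0.32) all have intervals that include 0.

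Genes linked to c-Maf in macrophages were all lower in tumor samples, none past the threshold. Of 13 tested genes 13 were negative, 0 were called and 6 had an unadjusted p under 0.05, with a median of -0.60, against 49.6% positive and 13.0% over all genes. Timd4, a receptor for phosphatidylserine on long-lived resident macrophages, went from -1.47 ± 1.77 to -5.22 ± 1.26 (SD, 5 samples each; limma adjusted p = 0.0819). It was well above background on 4 of 6 normal and 1 of 6 tumor arrays, which leaves its size uncertain, and it passed without the sample of normal replicates 2 and 3 (adjusted p = 0.0303), after normexp correction (0.0132), with trended and robust variance (0.0433) and with 12 arrays as separate samples (0.0440). Cd163, the scavenger receptor for haptoglobin with hemoglobin, went from 2.80 ± 0.73 to 1.03 ± 0.82 with no overlap between groups (limma adjusted p = 0.123), and passed with trended and robust variance (0.0429) and with 12 arrays as separate samples (0.0353). The list shares C1qa, C1qb, C1qc and Mrc1 with the macrophage markers. Its members also mark resident macrophages in general, and were chosen knowing that such markers were lower here, so the count is not independent evidence of its direction.

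Relatives of c-Maf gave no call. The 4 other MAF genes had a median of 0.048, with Mafk at -0.30 ± 0.34 (log2, SE) and Mafg at 0.29 ± 0.46, both small MAF proteins without an activation domain. The signs of the Mafg and Mafk differences depended on the setting.

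The gene with the profile most like that of Maf was Adgre1, which encodes an adhesion receptor widely used to mark mouse macrophages. Over the 10 samples the root mean square difference of their mean-centred levels was 0.23, among 8050 genes searched, against an SD of 0.63 for Maf itself. Adgre1 read 4.16, 3.25, 4.39, 4.05 and 3.88 in normal and 3.19, 3.15, 3.41, 3.01 and 2.95 in tumor samples. Its lowest normal value was again that of replicates 2 and 3 and its highest tumor value that of replicate 3, and the groups overlapped only there. The Adgre1 difference was -0.80 ± 0.24 (log2, SE; limma adjusted p = 0.195). Wtip, an adaptor protein of cell junctions, came next at 0.24, with a difference of -0.84.

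GATA6 was the most variable of the 9 factors. Its probe lies on chromosome 18 from 11085039 to 11085097 (plus strand). Gata6 stood at -2.77, 0.09, -0.23, -1.79 and -3.61 in normal and at -5.74, -2.48, -1.86, -2.90 and -2.33 in tumor samples. The groups overlapped, with 2 normal samples within the tumor range, though all 5 tumor samples lay below the normal median. Tumor replicate 1 lay far below the next sample of its group (-2.90). On that array the probe was not well above background. The difference was -1.40 (interval -3.32 to 0.52, limma adjusted p = 0.528), and it was -0.73 without tumor replicate 1. Its spread within groups was larger than that of 96.1% of genes.

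Genes of the GATA6 program of peritoneal macrophages had differences of both signs. Of 11 tested genes 6 were positive and 5 negative (median 0.20), and 1 was higher past the threshold (0.341% of all genes were). That gene was F10, which encodes coagulation factor X. F10 went from 1.66 ± 0.43 to 4.36 ± 0.51 (SD, 5 samples each; limma adjusted p = 0.00428), and it also stands in the monocyte list. Its call was lost with the acinar (limma adjusted p = 0.999) and monocyte (0.680) means as covariates. It was also lost within each slide, and 0 genes passed in any of these settings. Vsig4, a complement receptor of resident macrophages, differed by -2.75 (interval -4.67 to -0.83, limma adjusted p = 0.214), with an SD of 2.01 in normal samples. With only 3 normal arrays and 0 tumor arrays well above background, the size of its change is uncertain. Vsig4 passed without normal replicate 4 (adjusted p = 0.0186). Of 4 GATA relatives only Gata1, a factor of red cell and mast cell precursors, passed the filter on dim probes, with a difference of -0.090 ± 0.28 (log2, SE).

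The sample with the highest Gata6, normal replicates 2 and 3, was also the one with the most transcripts of other pancreatic cells. Its acinar list mean was 6.98, against 2.98 to 6.16 in the other normal samples and -2.88 to 1.30 in tumor samples, and its endothelial list mean was 0.80, against -1.67 to -0.17 in the other normal samples. The lowest Gata6 level, in tumor replicate 1, came with the lowest acinar mean. Its endothelial mean was -1.43, within the tumor range of -1.78 to -0.70. Normal replicate 4, with the second highest Gata6 level (-0.23), had an acinar mean of 5.77 and an endothelial mean of -1.37. In the order above the ductal and tumor epithelial means were 0.62, 2.34, 1.29, 0.75 and -0.35 in normal samples. They were 0.083, 0.18, 0.60, -0.28 and 1.12 in tumor samples. These means ranked the normal samples as Gata6 did, but not the tumor samples. GATA6 is also known from pancreatic epithelium and ID3 from endothelium. The nearest profile to Gata6 was that of Plvap, a protein of fenestrated endothelium, at a root mean square difference of 0.76 against an SD of 1.65, and Actg2, a smooth muscle actin, followed at 0.78. With the acinar mean as a covariate the Gata6 difference was 2.98 ± 1.53 (log2, SE; limma adjusted p = 0.999), and with the endothelial mean, chosen after the data were seen, it was -0.87 ± 0.87. The acinar means did not overlap between groups, so the fit with them cannot separate them from the group. The part of these cells in the Gata6 signal was not tested.

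ID3 and ZEB2 overlapped between groups. Id3, which lacks a DNA-binding region and holds E proteins in inactive pairs, stood at 2.10, 3.03, 1.13, 1.12 and 1.60 in normal and at 0.38, 1.16, 1.79, 1.07 and 1.75 in tumor samples. The highest value again belonged to normal replicates 2 and 3 and the lowest to tumor replicate 1, as for Gata6. The difference was -0.57 (interval -1.48 to 0.35, limma adjusted p = 0.593), and it was -0.26 without normal replicates 2 and 3. Zeb2, a zinc-finger repressor that supports monocyte and macrophage development, stood at 1.65, 0.69, 0.31, 0.83 and 2.37 in normal and at 0.64, 2.20, 1.95, 1.82 and 0.84 in tumor samples. Each group held high and low samples, and the difference was 0.32 (interval -0.67 to 1.32, limma adjusted p = 0.797).

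The 3 Zeb2 probes differed in their spread. Probe 2 of the sequences printed above varied least, with an SD of 0.29 in normal and 0.27 in tumor samples and a difference of 0.12 ± 0.23 (log2, SE). Probe 1 was above background on fewer arrays (3 of 6 normal, 6 of 6 tumor) and gave 0.64 ± 0.51. The tested probe, the brightest, had SDs of 0.83 and 0.70. The nearest profiles to the tested probe were those of Mafg (0.376) and Olfr629, an olfactory receptor (0.377), distances that amount to much of the SD of 0.75.

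ID proteins and their E protein partners gave no call. Of 5 tested genes 2 were positive and 3 negative (median -0.36). Tcf4, the E protein of plasmacytoid dendritic cells, differed by -0.71 ± 0.22 (log2, SE) with no overlap between groups, and missed the threshold at a limma adjusted p of 0.206. Id2, the ID protein of dendritic cells and innate lymphocytes, differed by 1.59 ± 0.62 (log2, SE), with 3 of 6 normal arrays well above background. Among 27 other myeloid transcription factors 19 were positive and 8 negative (median 0.17), with 0 calls. Bhlhe40, a repressor induced in proliferating and activated macrophages, was at 1.50 ± 0.38 (limma adjusted p = 0.125) and Klf4, a factor of monocytes, at 0.91 ± 0.33. Bhlhe40 passed after normexp correction (0.0358), with trended and robust variance (0.0419) and with 12 arrays as separate samples (0.0454).

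**Figure D3:**
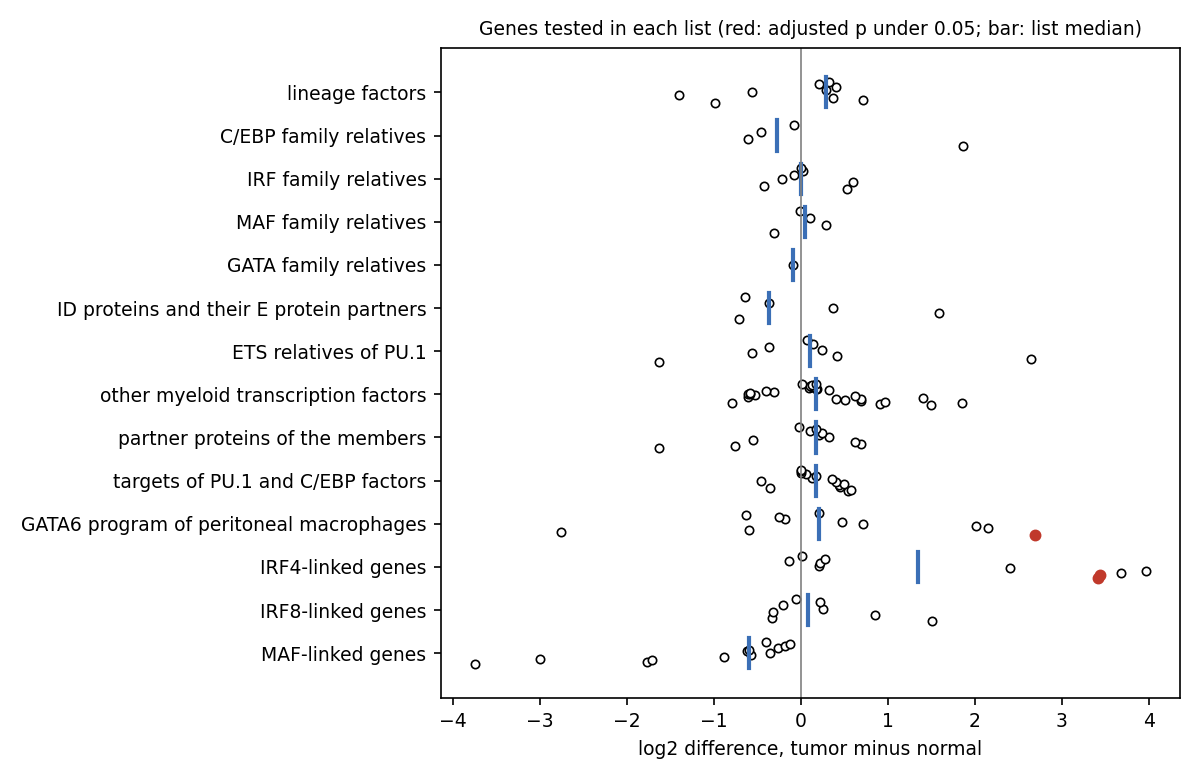
Genes of the lineage factor list and of the related lists. Each point is 1 tested gene at its log2 difference, tumor minus normal, on the horizontal axis, red points have an adjusted p under 0.05 in limma, and the vertical bar marks the list median. The 3 red points are F10, Pdcd1lg2 (drawn at its measured signal) and Ccl17, the 13 genes linked to MAF all lie left of 0, and the 9 lineage factors lie from -1.40 to 0.72.

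**Figure D4:**
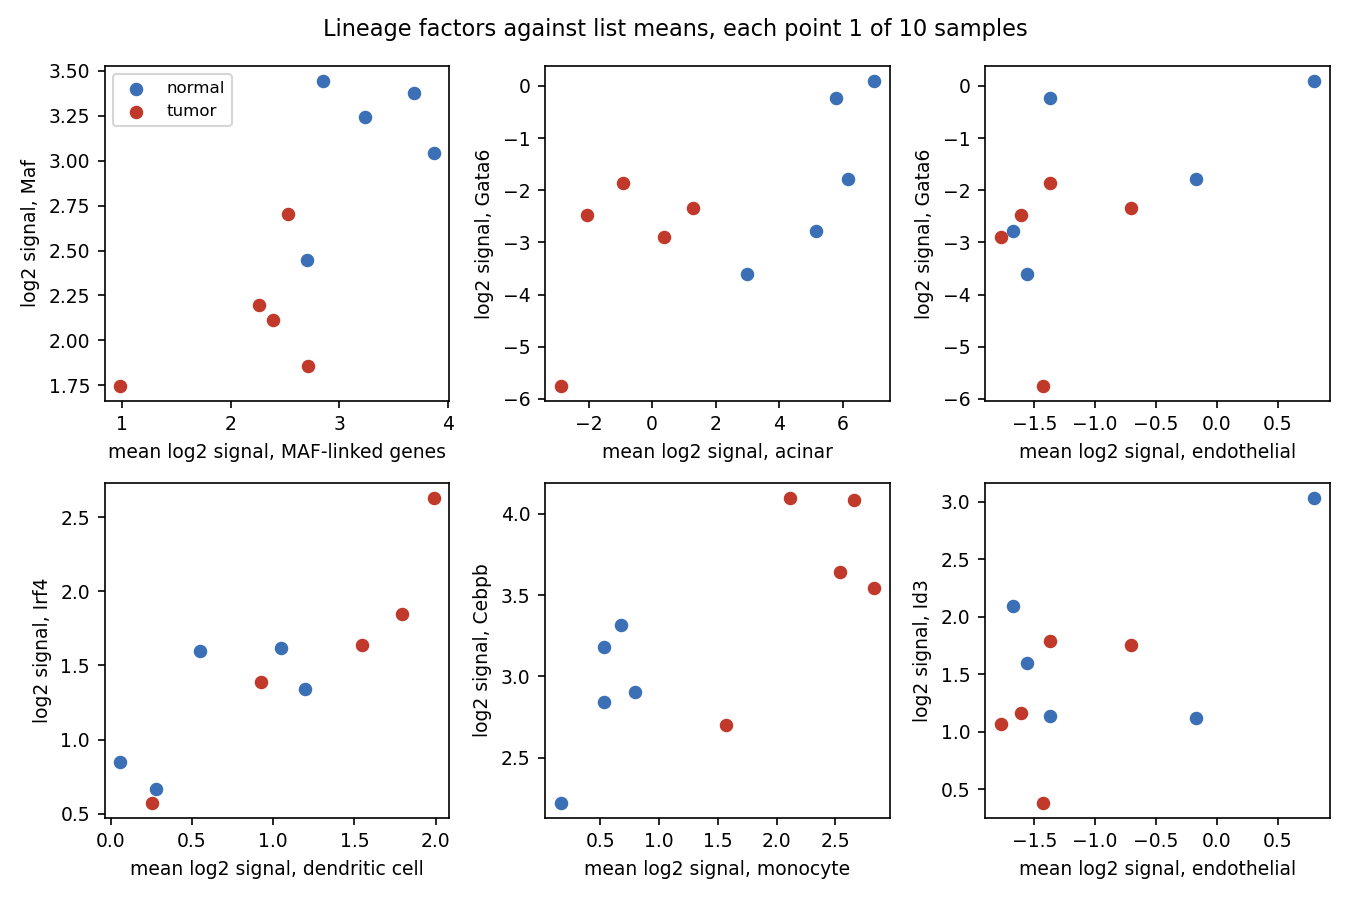
Levels of 5 lineage factors against the mean level of a gene list. Each point is 1 of 10 samples, normal in blue and tumor in red, with log2 signals relative to the 75th percentile on both axes. The tumor sample with the highest Irf4 level (2.63) also has the highest dendritic cell mean (1.99), the tumor samples of Cebpb sit at monocyte means of 1.57 or more, and the normal sample at an endothelial mean of 0.80 is the highest for Gata6 and for Id3.

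The nearest profiles of the other factors are given beside the factor's own SD over the 10 samples. A gene that did not vary would score just under that SD, so a smaller value by itself shows no likeness. For Spi1 they were Cyba, the NADPH oxidase subunit p22phox (0.12), and Med10, a Mediator subunit (0.12), against an SD of 0.34. Irf8 had Mob3a (0.15) and Cd52, a surface glycoprotein of leukocytes (0.17), against 0.43. Cebpa had Snx8 (0.16) and Atg4d (0.17) against 0.33, and Cebpb had Sgk1, a kinase induced by glucocorticoids (0.23), and Got1 (0.23) against 0.61. Irf4 had Mink1 (0.25) and Bri3bp (0.26) against 0.61, and Id3 had Dnal4 (0.34) and Col6a1, a collagen chain (0.36), against 0.72. All values are root mean square differences over the same 10 samples, which share their array scaling.

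Each of the 3 slides held 2 arrays per group, so differences could also be taken within a slide. The Maf difference was -0.78, -0.48 and -1.34 within slides 1, 2 and 3, the same sign on each. Cebpb gave 0.97, 0.032 and 0.69, smallest on slide 2. Spi1 (0.38, 0.39 and 0.23), Cebpa (0.52, 0.75 and 0.097), Irf4 (0.45, 0.36 and 0.67) and Irf8 (0.53, 0.14 and 0.41) kept a positive sign on every slide. Gata6 (-2.76, -2.34 and 0.10), Id3 (-1.82, -0.62 and 0.045) and Zeb2 (0.20, 1.45 and -0.28) changed sign on slide 3. Slides are not independent of each other, since slides 1 and 2 share a normal sample and slides 2 and 3 a tumor sample, and limma passed 0 genes within any slide, where 1590, 1565 and 953 had an unadjusted p under 0.05.

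**Figure D5:**
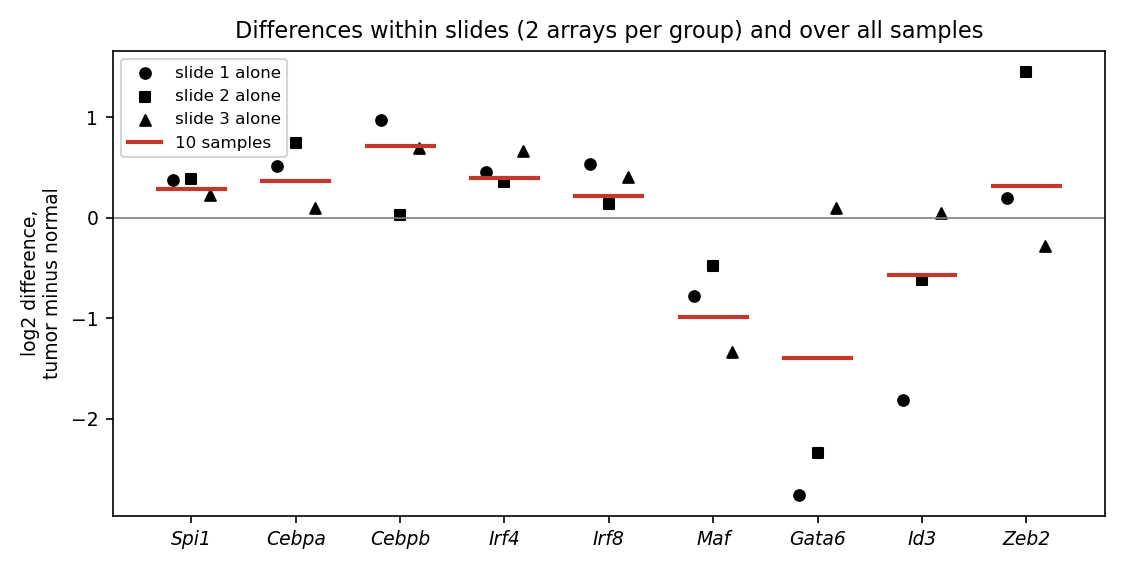
Difference of each lineage factor within single slides. The vertical axis is the log2 difference, tumor minus normal, circles, squares and triangles stand for slides 1, 2 and 3 (2 arrays per group each), and red bars give the difference over 10 samples. Maf lies below 0 on all 3 slides, and Gata6, Id3 and Zeb2 lie on both sides of 0.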

How the data were processed

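Per the labels' protocols, total RNA was amplified as cDNA with a whole-transcriptome kit and labelled with Cy5, so a difference is one of amplified signal. Per the file headers, arrays were read in the red channel with Agilent Feature Extraction 11.5.1.1 (also named in the submitters' processing notes). Among the deposited intensity columns is a processed signal, from which the scanner software had removed background. The authors also deposited a log2 table, which equalled quantile-normalized log2 processed signals (median absolute difference 0.0023) and served as an alternative.

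Spots with outlier flags were left out, log2 processed signals were averaged per probe, and each array's 75th percentile was subtracted. The filter kept 22446 of 39429 probes, those well above background on 3 or more of the 6 arrays of a group, and each gene was taken from its brightest probe (16402 genes). Probe names came from a gene table by accession (28015), symbol (3411) or synonym (295) or from the file (4985 and the 12 lineage probes), and 2711 had none. The test was limma's moderated one (version 3.58.1, R 4.3.3), two-sided, with p-values adjusted over all genes by Benjamini-Hochberg and a threshold of 0.05, and it was checked on simulated data. The number of arrays limits precision (median standard error 0.35).

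The 9 factors and all lists were chosen with earlier results of these data known. Named genes are the factors, the called genes and the 2 smallest p of each related list, and the 2 nearest profiles of each factor among genes well above background on all 12 arrays. The rule also takes the 2 brightest genes of each marker list, of which Fn1, Nr4a1, Itgam and C1qb are named. A bound ("at least") sets each dim array at the higher of the probe's signal and the lowest signal among probes well above background. Alternatives covered background correction, scaling, the dim-probe filter, shared sample names, slides, probes, flags, variance model, marker covariates, thresholds and leaving out each sample.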

Additional observations from a re-analysis of the deposited data

Results flagged for a closer look

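Chance puts about 1 in 20 groups past the limit used here, a gap to the nearest sample above 0.71 of the group's range, and 72 groups of 5 samples were examined, 18 of them of the 9 lineage factors. There were 4 past it, all in tumor samples. Gata6 was at -5.74 in tumor replicate 1, where the nearest tumor sample was at -2.90. Plvap, the endothelial gene with the profile nearest to Gata6, was at -3.05 in the same sample, where the nearest was at -1.56. Timd4, of the genes linked to MAF, was at -2.99 in that sample too, above the nearest at -5.61. Cst3, of the genes linked to IRF8, was at 5.32 in tumor replicate 3, below the nearest at 6.10. The values of tumor replicate 1 are not separate evidence on that sample, since Plvap was picked for its likeness to Gata6 over the same samples, the Gata6 reading there was not well above background, and only 1 of 6 tumor arrays gave Timd4 a signal well above background.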

How the results depend on the processing

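Over all alternatives 0 of 9 lineage factors passed an adjusted p under 0.05 in limma. At an unadjusted p under 0.05 there were 2, and 0 (acinar and monocyte covariates) to 3 (normexp correction) under alternatives. With every probe as a feature, 3 of the 12 probes were under it, the Cebpb probe and both Maf probes. Maf stayed negative in all 30 alternatives, from -1.35 with the acinar mean as a covariate to -0.48 within slide 2, with limma adjusted p from 0.0549 (trended and robust variance) to 0.999. Of the values of the 9 factors under alternatives 253 kept their direction and 11 turned. With the acinar mean as a covariate the turned values were -0.19 for Spi1, -0.12 for Irf8, 2.98 for Gata6, 0.72 for Id3 and -1.02 for Zeb2. With the dendritic cell mean they were -0.19 for Irf4 and -0.054 for Irf8, and with the monocyte mean, chosen after seeing the data, -0.76 for Cebpb. Within slide 3 they were 0.10 for Gata6, 0.045 for Id3 and -0.28 for Zeb2. Leaving out each sample in turn moved Maf from -1.15 to -0.89 and Cebpb from 0.55 to 0.95 and turned no factor. The acinar means did not overlap between groups (2.98 to 6.98 in normal, -2.88 to 1.30 in tumor samples). Nor did the monocyte means (0.16 to 0.80 in normal, 1.57 to 2.83 in tumor samples). Fits with either as a covariate therefore cannot separate the list mean from the group. The cause of these turns was not tested.

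The number of genes past the threshold, 140, was 214 after normexp correction, 460 with 12 arrays as separate samples and 236 with trended and robust variance. It was 0 within slide 1, 0 within slide 2 and 0 within slide 3 by limma (1590, 1565 and 953 at an unadjusted p under 0.05). With a list mean as a covariate it was 0 (acinar, 496 unadjusted), 42 (dendritic cell), 84 (endothelial, chosen after seeing the data) and 0 (monocyte, chosen after seeing the data, 1166 unadjusted). It was 263 at an adjusted p under 0.1 and 2126 at an unadjusted p under 0.05, and leaving out each sample gave 59 (normal replicate 5) to 197 (normal replicate 6).

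Among the other named genes that were followed under alternatives 12 values turned. With the acinar mean Cebpg was at 0.24, Id2 at -0.47, Klf4 at -0.062, Mafg at -0.52, Naaa at -0.86 and Plvap at 1.99, and with the monocyte mean Cebpg was at 0.45. Mafg was at -0.21 within slide 1, -0.36 within slide 3, -0.034 as the mean of its probes and -0.066 to 0.54 without each sample, and Mafk was at 0.098 within slide 1. No paired analysis was possible because replicate numbers follow accession order only and pair no samples. Signal limits Gata6, Timd4, Vsig4, Spib, Id2, Cebpe and Pdcd1lg2, which were near background on some arrays.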
